A study of Mus musculus with 4 samples.

Results

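Isg15, Usp18, Oas1a, Irf7, Ifit1, Ifit3, Ifi27, Ifi44l and Ifi202b are genes that interferons induce, and the 9 were taken by their symbols from the 32285 genes listed in the deposited matrices. The study profiled 1 liver section at each of 4 labelled times with Visium, a spatial assay in which barcoded spots on a slide capture the messenger RNA of the tissue above them and each captured molecule is counted once by a unique molecular identifier (UMI). The sections STAM20w and STAM16w came from the STAM model, a metabolic liver cancer model with fatty liver inflammation and insulin-deficient diabetes, at 20 and 16 weeks. The sections DEN30w and DEN22w came from mice given DEN, a DNA-damaging carcinogen, with CCl4, a fibrosis-inducing liver toxin, at 30 and 22 weeks. All 4 groups are mouse liver and none is untreated. The sources used here do not give strain, sex, the start of the week count or whether sections came from separate animals. With 1 section per group, model, time, animal, strain and processing batch cannot be told apart.

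The genes were partly chosen by measured values: Ifi44l and Ifi202b were known to have 0 UMIs in both STAM sections when the list was drawn up, and Ifi27 was known from a comparison of Mycn-detected spots. Differences between the models in these 9 genes are therefore given as a description with no test. Tests of the 9 genes were kept to contrasts inside sections and to whether the zone contrast depended on the model. The contrasts inside sections were spots rich in other interferon-induced genes, spots rich in macrophage, T and NK cell or stromal markers, and liver zones. They too were chosen with earlier results of these data known. Interferon genes outside the 9 were also tested between the models.

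Interferons are secreted proteins that cells make on sensing viral or misplaced nucleic acid. Type I interferons, such as the product of Ifnb1, act through the receptor chains Ifnar1 and Ifnar2 and switch on a common set of genes through STAT and IRF transcription factors, which bind a DNA motif called the interferon-stimulated response element. In liver, hepatocytes, macrophages and endothelial cells all carry the receptor, and the induced genes limit viral replication, feed back on the pathway and attract lymphocytes.

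The core of that element can be written GAAANNGAAA, or TTTCNNTTTC on the other strand, where N is any base. Promoter windows of 300 bases, from 250 before to 50 after the start site, were available for 7 of the 9 genes in the RefSeq promoter table for GRCm38.p6, and Usp18 and Ifi27 were not in it. A match on either strand, overlapping matches included, was present in 4 of the 7 windows, those of Isg15, Oas1a, Ifit1 and Ifit3, against 3.44% of all 32851 windows. The windows of Irf7, Ifi44l and Ifi202b did not hold these letters. The matched stretches are shown because 3 of these 4 genes, Isg15, Ifit1 and Ifit3, carried most of the local patterns described here. Irf7, with no match, and Usp18, with no window, shared some of these patterns. A link between matches and levels was not tested. Capitals mark the matches and sequences read 5′ to 3′ in the direction of the gene.
Isg15: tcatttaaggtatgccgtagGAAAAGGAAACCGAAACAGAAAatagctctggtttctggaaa
Oas1a: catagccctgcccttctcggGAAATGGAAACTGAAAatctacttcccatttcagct
Ifit1: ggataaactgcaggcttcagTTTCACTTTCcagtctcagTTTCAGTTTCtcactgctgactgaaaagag
Ifit3: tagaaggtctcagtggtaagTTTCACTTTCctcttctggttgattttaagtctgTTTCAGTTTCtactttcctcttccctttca
The Isg15 stretch lies at chr4:156200855-156200916 on the minus strand and holds 3 overlapping matches, from -78 to -57 relative to the start site. The Oas1a stretch lies at chr5:120907510-120907565 on the minus strand, with 2 overlapping matches from -20 to -5. The Ifit1 stretch at chr19:34640765-34640833 and the Ifit3 stretch at chr19:34583353-34583436 are on the plus strand and hold 2 separate matches each, the Ifit1 matches between -104 and -76 and the Ifit3 matches between -156 and -113.

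After removal of spots with fewer than 500 UMIs or 250 genes, 2833 spots remained in STAM20w, 2080 in STAM16w, 2968 in DEN30w and 2746 in DEN22w. They held between 20700642 and 40008457 UMIs per section, with medians between 7302.5 and 12761 UMIs per spot. Levels are given as CPM, the gene's UMI count scaled to 1000000 UMIs in the section or spot class. All 5 hepatocyte markers were detected in every section, at 35477 and 31621 CPM in STAM20w and STAM16w and 51500 and 71834 CPM in DEN30w and DEN22w, so the tissue label fitted its markers. Intervals are exact 95% Poisson intervals for levels and exact binomial ones for ratios and shares, and they cover counting error only. A section holds many cell types, so fewer cells of a type and less RNA per cell cannot be told apart.

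Of the 9 genes, 7 were higher in both STAM sections than in both DEN+CCl4 sections, and Ifi44l and Ifi202b had UMIs in the DEN+CCl4 sections alone. Irf7, a transcription factor that amplifies type I interferon production, had 95.7 CPM in STAM20w and 128 in STAM16w, against 79.8 in DEN30w and 60.5 in DEN22w. Isg15, a ubiquitin-like protein that is attached to other proteins, had 53.9 CPM in STAM20w and 58.1 in STAM16w, against 20.8 in DEN30w and 14.9 in DEN22w. Usp18, the protease that removes Isg15 from its targets and dampens signalling at the interferon receptor, had 48.6 CPM in STAM20w and 60.8 in STAM16w, against 18.8 in DEN30w and 18.7 in DEN22w. For these 3 genes the closest pair across the models was that of Irf7 in STAM20w, with an interval of 92.7 to 98.8 CPM, and in DEN30w, with 76.8 to 82.8 CPM.

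The genes of antiviral effectors had lower counts. Ifit1, whose protein binds foreign RNA ends, had 11.6 CPM in STAM20w and 19.6 in STAM16w, against 5.99 in DEN30w and 1.91 in DEN22w. Ifit3, whose human counterpart binds and stabilises IFIT1, had 29.8 CPM in STAM20w and 43.0 in STAM16w, against 13.8 in DEN30w and 6.85 in DEN22w. Oas1a, an enzyme of the oligoadenylate system that activates an RNA-degrading nuclease, had 10.9 CPM in STAM20w and 14.3 in STAM16w, against 5.33 in DEN30w and 3.87 in DEN22w. For Ifit1, Ifit3 and Oas1a, as for Irf7, Isg15, Usp18 and Ifi27, DEN22w had the lowest point level and STAM16w the highest. Near-identical genes lie beside some of these, Ifit3b beside Ifit3 and Oas1g beside Oas1a, and reads that fit both copies may be lost or divided, so single-gene values of Ifit3 and Oas1a are uncertain.

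Ifi27, an interferon-induced gene of a small hydrophobic protein, had 318 CPM in STAM20w and 525 in STAM16w, against 270 in DEN30w and 235 in DEN22w. It was detected in 86.1% of STAM20w spots, 95.6% of STAM16w spots, 81.6% of DEN30w spots and 77.2% of DEN22w spots. The related gene Ifi27l2a was counted apart, and whether any reads fit both genes was not examined.

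Ifi44l, an interferon-induced gene of less well known function, had 0 UMIs in STAM20w and in STAM16w, against 177 UMIs (5.07 CPM) in DEN30w and 117 UMIs (5.21 CPM) in DEN22w. Ifi202b, a member of the p200 family of nucleic acid-binding regulators and known to restrain the Aim2 inflammasome, likewise had 0 UMIs in STAM20w and in STAM16w, against 152 UMIs (4.36 CPM) in DEN30w and 67 UMIs (2.98 CPM) in DEN22w. With 0 replaced by 3 counts over the summed STAM sections, the levels were at least 104-fold lower for Ifi44l and at least 77.3-fold lower for Ifi202b in STAM. Of 10410 genes with at least 219 UMIs in the DEN+CCl4 sections together, the count of Ifi202b, 3 (0.0288%) were at 0 in STAM20w and STAM16w. These were Ifi44l, Ifi202b and Gm10503, the last one named after its values were seen. Ifi44l and Ifi202b were listed with their 0 UMIs in STAM known, so their place among the 3 was fixed beforehand. Expression of Ifi202b is known to differ between inbred mouse strains, and strain and model cannot be told apart here.

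Over all 14417 genes tested between the models, 18.5% were higher in both STAM sections than in both DEN+CCl4 sections by CPM and 39.2% were lower in both. After scaling with TMM, which compares the bulk of the genes, these shares were 28.7% and 28.5%, because the median gene was 0.17 lower in STAM on the log2 CPM scale (median log2 difference -0.17). The 7 genes were above and the 2 genes below on UMI totals, TMM and DESeq2 size factors alike. On the TMM scale the STAM over DEN+CCl4 log2 differences were 2.18 (SE 0.55) for Ifit1, 2.02 (SE 0.38) for Ifit3, 1.83 (SE 0.23) for Isg15, 1.72 (SE 0.24) for Usp18, 1.64 (SE 0.28) for Oas1a, 0.93 (SE 0.36) for Ifi27 and 0.87 (SE 0.27) for Irf7. With 1 section left out in turn, the differences ranged over 1.63 to 3.14 for Ifit1, 1.61 to 2.52 for Ifit3, 1.67 to 2.02 for Isg15, 1.45 to 1.92 for Usp18, 1.32 to 1.86 for Oas1a and 0.41 to 1.28 for Ifi27, with a lowest value of 0.53 for Irf7. The low end came without STAM16w for Ifit1, Ifit3, Usp18, Oas1a, Ifi27 and Irf7, and without DEN22w for Isg15. Ifit1 had 1.64 without DEN22w, and the high ends of Ifit1 and Ifit3 came without DEN30w.

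**Figure D1:**
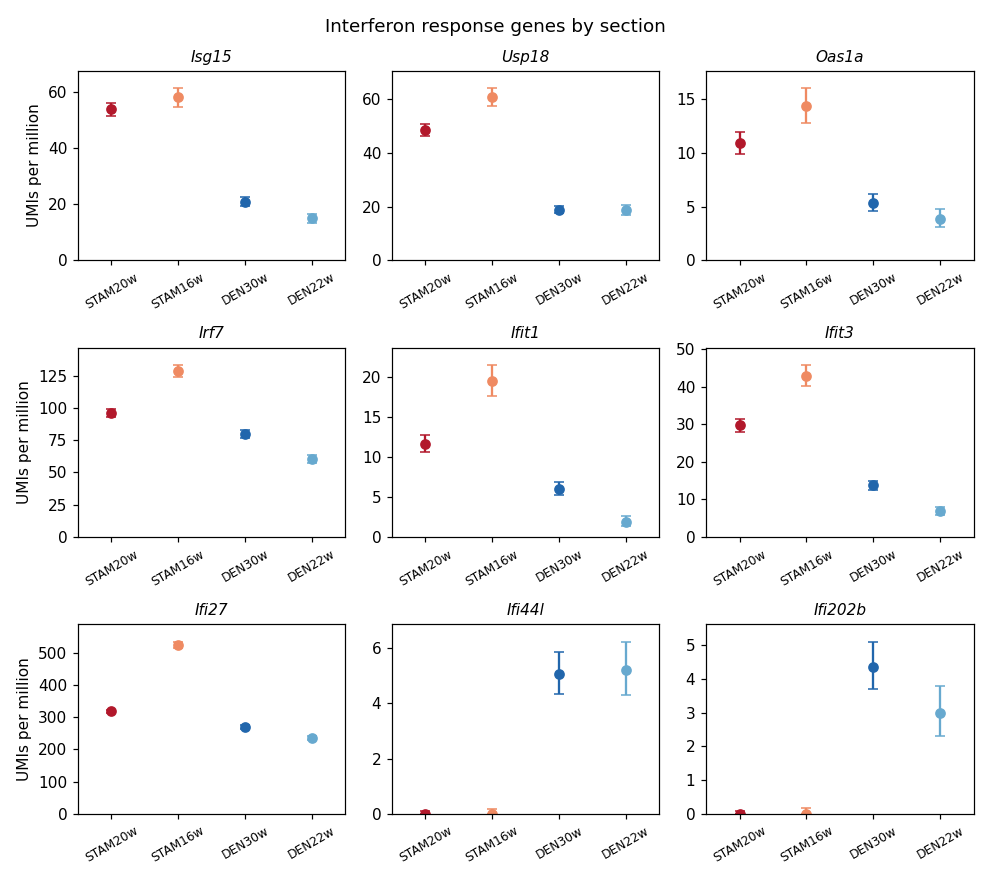
CPM of each of the 9 genes in STAM20w, STAM16w, DEN30w and DEN22w, with exact 95% Poisson intervals as bars and each axis starting at 0. In 7 panels both STAM sections lie above both DEN+CCl4 sections, and Ifi44l and Ifi202b are at 0 in both STAM sections.

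Interferon genes outside the 9 were set against the same contrast. At an edgeR adjusted p under 0.05, 63 of 14417 genes (0.437%) differed between the models. DESeq2 called 1513. None of 38 interferon-induced genes used to find interferon-rich spots was called by edgeR (21 at an unadjusted p under 0.05, as were 22.9% of all genes tested, 11 by DESeq2, median log2 difference 0.76). None of 25 genes known mainly as interferon gamma targets was called (9 unadjusted, 4 by DESeq2, median 0.23), and none of 14 genes of ligands, receptors and signalling (2 unadjusted, 0 by DESeq2, median 0.18). Of 20 tested paralogs of the 9 genes, with a median of 1.15, 1 was called by edgeR and 10 by DESeq2. The first was Ifi213, a p200 gene, at 2.32 (SE 0.27, edgeR adjusted p = 0.0442), with 7.77 and 7.63 CPM in STAM20w and STAM16w and 1.83 and 1.65 CPM in DEN30w and DEN22w. The median over all genes tested was -0.0016. Ifi213 and Ifi202b belong to the same p200 family and lay on opposite sides between the models.

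Times within a model could be compared over 1 section on each side, without a test. In the STAM model all 7 detected genes were lower in STAM20w than in STAM16w, with ratios between 0.594 for Ifit1 (interval 0.519 to 0.680) and 0.928 for Isg15 (0.864 to 0.996). Mitochondrial and ribosomal protein genes took 3.67% and 7.39% of the UMIs in STAM20w, against 2.10% and 4.34% in STAM16w, and without them the Isg15 ratio was 0.976 (0.909 to 1.05), an interval that held 1. None reached a 2-fold difference, which 9.18% of the 8025 genes at 10 CPM or more in either section did in one direction or the other. In the DEN+CCl4 model, DEN30w over DEN22w ratios were 3.13 for Ifit1 (2.25 to 4.46), 2.01 for Ifit3 (1.67 to 2.42), 1.40 for Isg15 (1.23 to 1.60), 1.38 for Oas1a (1.06 to 1.80), 1.32 for Irf7 (1.24 to 1.41) and 1.15 for Ifi27 (1.11 to 1.19). Ifit3 was at least 2-fold higher, as were 2.51% of 8317 genes at 10 CPM or more, a level that Ifit1 did not reach. Usp18 at 1.01 (0.890 to 1.14) and Ifi44l at 0.975 (0.767 to 1.24) had intervals that held 1, and Ifi202b was at 1.46 (1.09 to 1.98). Cell type markers moved with these genes: macrophage markers (14 of 14 detected) summed to 1538 CPM in DEN30w and 921 in DEN22w, T and NK cell markers (12 of 12) to 25.2 and 15.1, and fibroblast markers (8 of 8) to 520 and 313. Hepatocyte markers were lower in DEN30w, as given above, and in STAM20w macrophage markers were at 1727 CPM, against 1073 in STAM16w, where the 7 genes were higher. Their part in the time differences was not tested. A single spot and its surroundings carried much of the higher Ifit1, Ifit3 and Isg15 in DEN30w, as described next.

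Interferon transcripts themselves were nearly absent. Ifnb1, the interferon beta gene, had 12 UMIs in DEN30w and 0 in the other 3 sections, where 3 counts would be between 0.0750 and 0.145 CPM. Of the 12, 11 lay in 1 spot of 16214 UMIs and the other in a spot far from it. The same spot held 2 UMIs of Ifnl2 and 1 of Ifnl3, type III interferon genes, and the other Ifnl3 UMI of the section lay 2 steps away, a step being the distance to a touching spot. Ifna1, Ifna2, Ifna4 and Ifna5 had 0 UMIs in every section, and Ifng, the interferon gamma gene, had 4 in STAM20w, 3 in STAM16w, 0 in DEN30w and 2 in DEN22w.

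Around the Ifnb1-rich spot, Isg15, Ifit3, Ifit1, Irf7 and Usp18, 5 of the 9 genes, were high and their levels fell with distance. Isg15 had 29 UMIs in that spot (1789 CPM, 1198 to 2569) and 78 in the 6 touching spots (975 CPM, 771 to 1217). It had 158 CPM at 2 steps and 47.8 CPM at 3 steps, against 16.6 CPM in the 2851 spots 7 or more steps away. Ifit3 had 2282 CPM in the spot, 787 at 1 step, 133 at 2 steps and 63.7 at 3 steps, against 9.85 CPM at 7 or more. Ifit1 had 987 CPM in the spot, 412 at 1 step and 99.7 at 2 steps, against 4.02 CPM at 7 or more. The point levels of these 3 genes fell from each ring to the next up to 3 steps, at which Ifit1 had 26.6 CPM.

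Irf7 had 925 CPM in the spot, 575 at 1 step and 233 at 2 steps, against 76.9 CPM at 7 or more, and at 3 steps its 101 CPM had an interval of 60.8 to 158 that held the distant level. Usp18 had 493 CPM in the spot, 287 at 1 step and 116 at 2 steps, against 17.4 CPM at 7 or more. Oas1a rested on 2 UMIs in the spot (123 CPM, 14.9 to 446) and 4 at 1 step (13.6 to 128 CPM), against 5.12 CPM at 7 or more. Ifi27 had 2 UMIs in the spot (123 CPM, 14.9 to 446) and 250 CPM at 1 step, against 270 CPM at 7 or more, with no fall over the rings. Ifi44l with 0 UMIs in the spot and 1 at 1 step, and Ifi202b with 1 UMI in the spot and 2 at 1 step, had too few counts to show a fall or its absence.

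The touching spots were unequal. Of the 6, the first 2 by Isg15 had 38 and 27 Isg15 UMIs, 12 and 9 Ifit1 UMIs and 26 and 27 Ifit3 UMIs, and the other 4 had 1 to 6 Isg15 UMIs; the lowest had 679 UMIs in all. Ifnb1 had 11 UMIs in the central spot and 0 in all 6 touching spots, whereas Isg15 had more UMIs in 1 of the touching spots than in the centre. Among 1502 genes with at least 10 UMIs within 1 step, the first ranks by fold over the distant spots were held, after Ifnb1 itself, by Rsad2, Cmpk2, Ifit3b, Ifit2, Ifit1, Ifit3, Cxcl10 and Isg15, with folds between 174 for Rsad2 and 66.9 for Isg15. Rsad2 encodes the antiviral enzyme viperin, Cmpk2 a nucleotide kinase encoded beside it, and Cxcl10 a chemokine that attracts T cells. This ranking was made after the spot had been seen.

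Cell type markers in the centre were given beside these values. Hepatocyte markers summed to 55693 CPM in the spot and 51475 CPM at 7 or more steps, and macrophage markers to 1480 and 1535 CPM, with 10 of 14 detected in the spot and Csf1r, Adgre1, Timd4 and Fcgr3 at 0. T and NK cell markers had 12 UMIs in the spot (740 CPM) against 24.7 CPM at 7 or more steps, of which 8 were Ccl5, a chemokine gene that interferons also induce; Cd3d, Cd3e, Trbc1, Trbc2, Cd8a, Cd4, Gzma and Klrd1 were at 0. Dendritic cell markers were detected as Bst2 alone, itself an interferon-induced gene, and Siglech, Ccr9, Flt3, Xcr1, Clec9a and Cd209a were at 0. The part of any cell type in the pattern was not tested.

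The 19 spots within 2 steps held 0.621% of the UMIs of DEN30w, 29.2% of its Ifit1 UMIs, 24.2% of its Ifit3 UMIs and 17.4% of its Isg15 UMIs, but 0.657% of its Ifi27 UMIs. Without them, DEN30w had 4.27 CPM of Ifit1, 10.5 of Ifit3 and 17.3 of Isg15. The DEN30w over DEN22w ratios were then 2.23, 1.53 and 1.16, each below the interval with all spots. For Irf7, Usp18, Oas1a, Ifi44l and Ifi202b the ratios moved to 1.28, 0.945, 1.33, 0.964 and 1.44, inside their intervals.

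**Figure D2:**
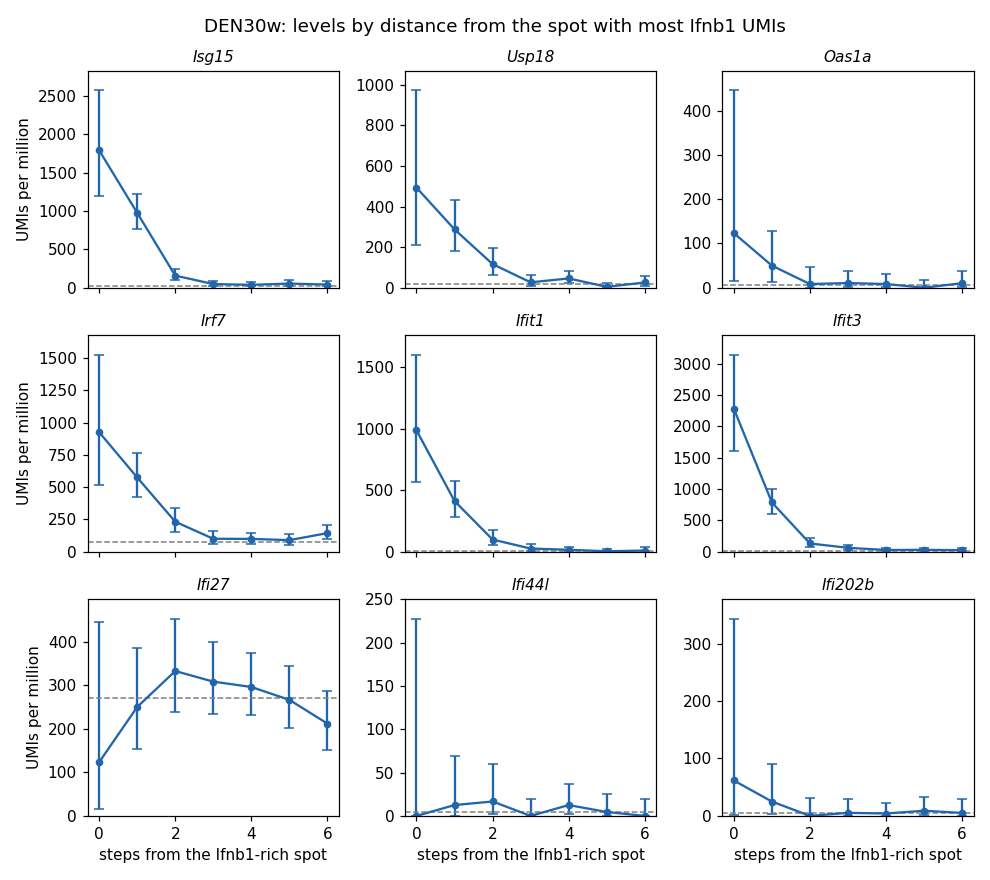
CPM of the 9 genes in DEN30w by steps from the Ifnb1-rich spot at 0, with exact 95% Poisson intervals as bars and the level of spots 7 or more steps away as a dashed line. Isg15, Usp18, Irf7, Ifit1 and Ifit3 fall over the first 3 steps, Ifi27 does not, and Oas1a, Ifi44l and Ifi202b rest on few UMIs.

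Smaller groups of high spots were present elsewhere. Spots with at least 10 UMIs of Isg15, Ifit1 and Ifit3 together, a limit set after the maps had been seen, numbered 21 in STAM20w, 20 in STAM16w, 11 in DEN30w and 0 in DEN22w, where the highest spot had 6. These spots held 10.4% of the 3 genes' UMIs in STAM20w, 13.6% in STAM16w and 24.8% in DEN30w. The limit was not scaled for depth. Median UMIs per spot were 12761 in STAM20w, 9711.5 in STAM16w, 9423 in DEN30w and 7302.5 in DEN22w. Touching spots formed 3 groups in each of STAM20w, STAM16w and DEN30w, of 2 to 6 spots. Levels of Isg15, Ifit1 and Ifit3 in the groups are high by the choice of spots. The largest STAM20w group, of 5 spots, had 433 CPM of Isg15, 303 of Ifit1 and 638 of Ifit3, with 303 of Usp18. Irf7 at 151 CPM and Ifi27 at 389 CPM in that group lay nearer to the section's 95.7 and 318 CPM.

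In STAM16w the group with most UMIs of the 3 genes, of 3 spots, had 733 CPM of Isg15, 328 of Ifit1, 884 of Ifit3 and 480 of Irf7. It held 33 UMIs of T and NK cell markers, 32 of them Ccl5, against 0 to 7 such UMIs in the other 5 STAM groups. In DEN30w both groups outside the Ifnb1-rich one lay 36 and 37 steps from it. Ifnb1 and Ifng had 0 UMIs in all 8 of the groups other than the Ifnb1-rich one.

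**Figure D3:**
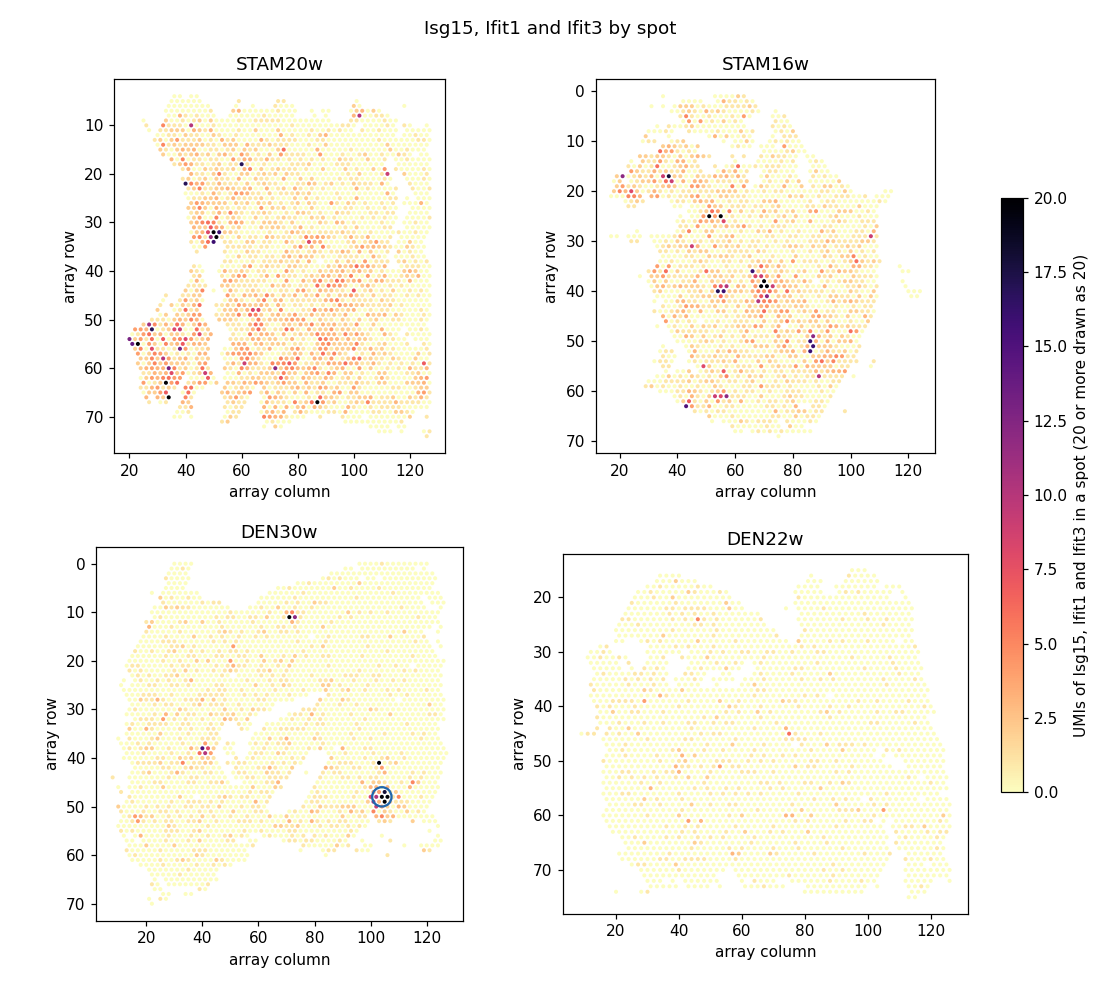
Each point is a spot at its array row and column in STAM20w, STAM16w, DEN30w and DEN22w, coloured by its UMIs of Isg15, Ifit1 and Ifit3 together, and the circle marks the Ifnb1-rich spot of DEN30w. High spots occur in small groups in STAM20w, STAM16w and DEN30w, and no spot of DEN22w has more than 6 UMIs of the 3 genes. The UMIs are not scaled for depth, which differs between the sections.

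Detection per spot also depends on depth. Isg15 was detected in 44.0% of STAM20w spots, 37.7% of STAM16w spots, 16.8% of DEN30w spots and 10.9% of DEN22w spots, so its share was higher in STAM20w than in STAM16w where its CPM was lower. After each spot was thinned to 2000 UMIs, leaving out shallower spots (2623, 2038, 2630 and 2547 spots remained in that order), the shares were 9.99%, 10.3%, 4.18% and 3.26%. Thinned shares of Ifit1 were 2.21% in STAM20w (1.68 to 2.85), 2.94% in STAM16w (2.25 to 3.77), 1.29% in DEN30w (0.897 to 1.80) and 0.393% in DEN22w (0.188 to 0.721). For Isg15 both STAM shares lay above both DEN+CCl4 shares before and after thinning. For Ifit1 the intervals of STAM20w and DEN30w overlapped, while that of DEN22w lay below all others.

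Interferon-rich spots were the 10% of each section's spots with the highest mean level of 38 other interferon-induced genes, each matched to a spot of like depth below the median of that score (283, 208, 297 and 275 pairs in STAM20w, STAM16w, DEN30w and DEN22w). Counts were summed per section and class and tested with edgeR's quasi-likelihood test over 4 sections, with the section as a block. Of the 9 genes 4 were higher and none was lower, against 1.26% of 11488 genes higher. Ifit1 rose by a log2 difference of 1.93 (SE 0.17, edgeR adjusted p = 5.74e-07), Ifit3 by 1.76 (SE 0.13, adjusted p = 5.4e-08), Isg15 by 1.38 (SE 0.11, adjusted p = 2.46e-07) and Irf7 by 0.45 (SE 0.08, adjusted p = 0.00172). All 4 were higher in 4 of 4 sections.

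The values behind these tests differed by section. Ifit3 had 71.9 CPM in rich and 23.2 in matched spots of STAM20w, 125 and 33.9 in STAM16w, 54.7 and 9.88 in DEN30w and 12.4 and 5.80 in DEN22w. Isg15 had 98.7 CPM in rich and 43.0 in matched spots of STAM20w, 136 and 42.9 in STAM16w, 63.2 and 16.6 in DEN30w and 27.3 and 12.8 in DEN22w. Rich spots of DEN22w thus stayed below the matched spots of both STAM sections for both genes. Ifit1 in DEN22w rested on 7 UMIs in rich and 3 in matched spots.

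Usp18 and Oas1a were higher in rich spots of 4 of 4 sections but did not pass, at 0.44 (SE 0.12, edgeR adjusted p = 0.0573) and 0.67 (SE 0.19, adjusted p = 0.0775). With the top 5% of spots in place of 10%, both passed, at 0.88 (adjusted p = 0.000213) and 1.304 (adjusted p = 0.016). Ifi27 had a difference of 0.02 (SE 0.06, adjusted p = 0.913), with 367 CPM in rich and 297 in matched spots of STAM20w but 540 and 527 in STAM16w. Ifi44l at 0.59 (SE 0.35, adjusted p = 0.498) and Ifi202b at -0.04 (SE 0.42, adjusted p = 0.986) rested on the DEN+CCl4 sections alone. T and NK cell markers, a list that holds the interferon-induced Ccl5, moved with these spots. They had 44.0 CPM in rich and 17.8 in matched spots of STAM20w and 58.9 and 22.6 in STAM16w. In DEN30w they had 45.7 and 22.6 CPM, and in DEN22w 23.6 and 11.6. Macrophage and fibroblast markers were also higher in rich spots of all 4 sections. Macrophage log2 ratios were 0.32, 0.17, 0.51 and 0.49, and fibroblast ratios 0.83, 0.12, 0.43 and 0.35, in the same order. The part of these cell types was not tested. Without the spots near the Ifnb1-rich spot, Ifit1, Ifit3, Isg15 and Irf7 still passed, at 1.69, 1.55, 1.20 and 0.39. Irf7 missed the threshold without DEN30w (0.37, adjusted p = 0.0545) and with DESeq2 (0.42, adjusted p = 0.0589).

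Other interferon genes in the same comparison differed by list. The list that defined the spots had 36 of 37 tested genes higher, led by Cmpk2 at 2.87, Rsad2 at 2.84, Oas3 at 1.84, Ddx60 at 1.78 and Trim30a at 1.73; this follows from the choice of spots. Of 13 paralogs 4 were higher, Ifit3b at 1.95 (SE 0.21), Oas1g at 1.0003 (SE 0.23), Mndal at 0.59 and Ifi27l2a at 0.43. Of 23 interferon gamma targets 6 were higher, among them Tgtp1 at 2.30 (SE 0.48), Cxcl10 at 1.60 (SE 0.15), Gbp2 at 1.41, Gbp6 at 1.17 and Cxcl9 at 1.12. None of 12 ligand, receptor and signalling genes passed with edgeR (3 at an unadjusted p under 0.05, as were 14.1% of all genes tested, and 0 with DESeq2). Ifi27l2a thus passed where its paralog Ifi27 did not; their difference was not tested.

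**Figure D4:**
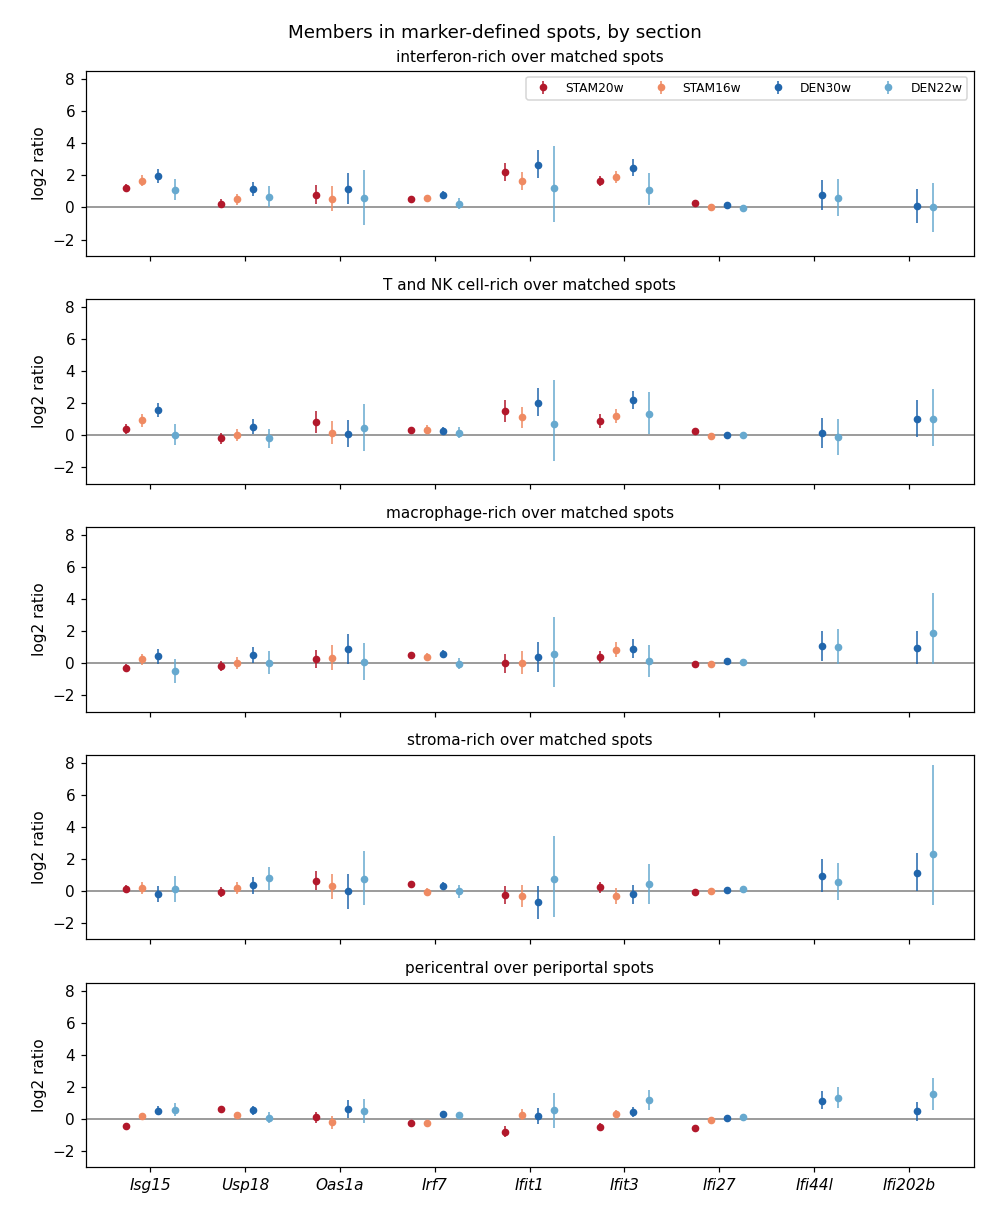
log2 ratio of CPM for each gene in 5 contrasts within sections (rows), 1 point per section with its exact 95% interval, and Ifi44l and Ifi202b shown for the DEN+CCl4 sections only. Isg15, Ifit1 and Ifit3 lie above 0 in interferon-rich spots of all 4 sections, and pericentral over periportal ratios of Isg15 and Ifit3 are below 0 in STAM20w and above 0 in the other 3 sections.

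T and NK cell-rich spots had higher Ifit1, Ifit3 and Isg15, 3 of the 9 genes against 0.631% of 11418 genes. Matched spots had 0 CPM of the T and NK cell markers, so any marker UMI set a rich spot apart. In rich spots the markers summed to 195.9 CPM in STAM20w, 192.7 in STAM16w, 174.8 in DEN30w and 126.7 in DEN22w. With medians of 8717, 8522, 8483 and 9038 UMIs per rich spot, these levels are few marker UMIs per spot. The number of T and NK cells in these spots was not measured. The log2 differences from matched spots were 1.41 for Ifit1 (SE 0.19, edgeR adjusted p = 8.13e-07), 1.301 for Ifit3 (SE 0.14, adjusted p = 1.04e-09) and 0.73 for Isg15 (SE 0.12, adjusted p = 8.59e-05). Ifit3 had 44.5 CPM in rich and 24.1 in matched spots of STAM20w, 78.8 and 34.5 in STAM16w, 53.1 and 11.7 in DEN30w and 7.58 and 3.04 in DEN22w. Irf7 had 0.24 (SE 0.07, adjusted p = 0.0939), and the other 5 genes lay between -0.01 and 0.92 and did not pass. Isg15 did not pass without DEN30w, at 0.50 (adjusted p = 0.188), or with DESeq2, at 0.695 (adjusted p = 1). In DEN22w it had 43 UMIs in rich and 42 in matched spots.

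The marker list held Ccl5, which interferons induce. Without Ccl5 in the list the 3 genes still passed, at 0.70 for Ifit1 (adjusted p = 0.0137), 0.86 for Ifit3 (adjusted p = 5.36e-10) and 0.54 for Isg15 (adjusted p = 1.36e-05). Without Ccl5 and without the 19 spots around the Ifnb1-rich spot, Ifit3 passed at 0.57 (adjusted p = 0.00093), while Ifit1 had 0.37 (adjusted p = 0.607) and Isg15 0.31 (adjusted p = 0.12). Of 22 interferon gamma targets 5 were higher in T and NK cell-rich spots, Cxcl9 at 1.502 (SE 0.19), Cxcl10 at 1.47 (SE 0.17), Gbp4 at 0.98, Gbp6 at 0.65 and Igtp at 0.48. Of 37 spot-defining interferon genes 3 were higher, among them Rsad2 at 1.37 (SE 0.20) and Oasl1 at 0.86 (SE 0.16).

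In macrophage-rich spots 1 of the 9 genes was higher, against 4.55% of 11398 genes. Ifit3 had a log2 difference of 0.53 (SE 0.13, edgeR adjusted p = 0.0182), with 37.2 CPM in rich and 28.4 in matched spots of STAM20w, 54.8 and 30.7 in STAM16w, 22.6 and 12.2 in DEN30w and 10.1 and 9.14 in DEN22w. The call was lost without the spots near the Ifnb1-rich spot (0.45, adjusted p = 0.0539), without STAM16w (0.42, adjusted p = 0.186), without DEN30w (0.50, adjusted p = 0.0661), with the top 5% of spots (0.49, adjusted p = 0.189) and with DESeq2 (0.51, adjusted p = 0.523). Irf7 was at 0.31 (SE 0.09, adjusted p = 0.0514), higher in 3 of 4 sections. Ifi202b and Ifi44l were higher in both DEN+CCl4 sections but did not pass, at 1.001 (SE 0.45, adjusted p = 0.242) and 0.86 (SE 0.36, adjusted p = 0.204). The pericentral gene Cyp2e1 was higher in macrophage-rich than in matched spots of DEN30w and DEN22w (log2 ratios 0.67 and 0.69) and the periportal gene Cyp2f2 lower (-0.90 and -0.57). In STAM20w and STAM16w the ratios were 0.68 and 0.05 for Cyp2e1 and -0.30 and -0.21 for Cyp2f2. T and NK cell markers were also higher, at 56.7 and 23.5 CPM in DEN30w and 32.7 and 13.5 in DEN22w. Fibroblast markers were higher too, with log2 ratios of 1.34 in STAM20w, 0.50 in STAM16w, 1.17 in DEN30w and 0.78 in DEN22w. The part of zone and of these cells in the differences was not tested.

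Of 16 paralogs tested, 8 were higher in macrophage-rich spots, and DESeq2 called 3 paralogs. Among the 8 were 6 p200 genes related to Ifi202b, Ifi204 at 1.36 (SE 0.21), Ifi213 at 1.004 (SE 0.27), Ifi211 at 0.94 (SE 0.26), Ifi207 at 0.93 (SE 0.19), Ifi203 at 0.85 (SE 0.15) and Mndal at 0.71 (SE 0.11). Of 37 spot-defining interferon genes 5 were higher, with Oas2 at 0.97 and Trim30a at 0.85. Receptor genes Ifngr1, at 0.53 (SE 0.10), and Il10rb, at 0.80 (SE 0.14), were higher with the sensor adaptor gene Tmem173 at 1.06 (SE 0.29). In stroma-rich spots none of the 8 genes tested passed with edgeR (0 also at an unadjusted p under 0.05, against 23.4% of all genes tested, and none with DESeq2), where 5.76% of 11307 genes were higher; the differences lay between -0.38 for Ifit1 and 0.65 for Ifi44l, and Ifi202b was too low to be tested. Ifi27l2a at 0.95 (SE 0.09) and Ifi204 at 0.81 (SE 0.21) were among 4 of 15 paralogs higher there. Macrophage markers were also higher in stroma-rich spots, with log2 ratios of 0.71 in STAM20w, 0.17 in STAM16w, 0.85 in DEN30w and 0.59 in DEN22w. Ifi204, Ifi213, Mndal and Ifi27l2a passed in both macrophage-rich and stroma-rich spots, and the part of each cell type was not tested. Of 37 spot-defining genes 3 were higher, Sp100 at 0.75 (SE 0.16), Oasl2 at 0.65 (SE 0.18) and Oas2 at 0.55 (SE 0.17), and Cmpk2 was lower at -0.86 (SE 0.24, edgeR adjusted p = 0.0279); DESeq2 called none of the 37.

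Between liver zones, with pericentral spots being the upper and periportal spots the lower tercile of a marker score, none of the 9 genes passed with edgeR (3 at an unadjusted p under 0.05, as were 22.8% of all genes tested, and none with DESeq2), against 8.68% of 13390 genes in either direction. Ifi44l came closest, at 1.001 (SE 0.28, edgeR adjusted p = 0.055), with 7.59 CPM in pericentral and 3.39 in periportal spots of DEN30w and 8.91 and 3.54 in DEN22w. It passed without STAM20w, in which it has no UMIs (1.05, adjusted p = 0.022), and with no filter on low counts (0.99, adjusted p = 0.0125). Macrophage markers summed to 2088 CPM in pericentral and 1094 in periportal spots of DEN30w and 1323 and 695 in DEN22w. Fibroblast markers had 797 and 325 CPM in DEN30w and 473 and 217 in DEN22w. T and NK cell markers had 36.1 and 18.4 CPM in DEN30w and 19.7 and 10.3 in DEN22w. The part of these cell types in the Ifi44l values was not tested. Usp18 was at 0.29 (SE 0.10, adjusted p = 0.109) and higher in 4 of 4 sections, with 63.1 CPM in pericentral and 40.1 in periportal spots of STAM20w. The terciles were taken over all spots of a section. In STAM20w they include the regions led by Cpe and Maoa and by Afp and H19, described below. How these regions fell over the zones was not measured, and their part in the zone values was not tested. Ifi202b, at 0.65 (SE 0.37, adjusted p = 0.345), had 57 and 48 UMIs in pericentral and periportal spots of DEN30w and 26 and 14 in DEN22w. Ifi27, at -0.27 (SE 0.11, adjusted p = 0.144), had 249 CPM in pericentral and 372 in periportal spots of STAM20w, and ratios nearer to 1 in the other sections. Of 19 paralogs Ifi27l2a alone passed, higher in pericentral spots at 0.49 (SE 0.09). Of 25 interferon gamma targets Gbp6 was higher at 0.66 (SE 0.11) and Iigp1 lower at -0.40 (SE 0.10), and none of 38 spot-defining genes passed with edgeR (3 at an unadjusted p under 0.05, 1 with DESeq2).

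For several genes the sections disagreed, with the regions of STAM20w not set apart from its zones. Isg15 had 44.4 CPM in pericentral and 58.9 in periportal spots of STAM20w but 60.9 and 53.5 in STAM16w, 25.9 and 17.9 in DEN30w and 18.0 and 12.0 in DEN22w. Ifit3 had 22.4 and 30.8 CPM in STAM20w but 47.9 and 38.1 in STAM16w, 16.7 and 12.2 in DEN30w and 10.3 and 4.50 in DEN22w. Irf7 was lower in pericentral spots of both STAM sections, at 83.4 and 98.3 CPM in STAM20w and 117 and 138 in STAM16w, and higher in both DEN+CCl4 sections, at 91.8 and 72.3 in DEN30w and 67.4 and 55.8 in DEN22w. The test of a zone difference that depends on the model called 0.358% of 13390 genes and none of the 7 genes that could be estimated (2 at an unadjusted p under 0.05, as were 14.2% of all genes tested, and none with DESeq2). Irf7 was at -0.38 (SE 0.13, edgeR adjusted p = 0.211) and Isg15 at -0.52 (SE 0.21, adjusted p = 0.306), STAM minus DEN+CCl4.

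Regions were found by clustering each section without the 9 genes or any other interferon gene, and are given by their leading genes as a description. In STAM20w a region of 222 spots led by Afp and H19, fetal liver genes, had the highest levels of 5 of the genes among 9 regions. It had 113 CPM of Isg15 (102 to 125), where the other 8 regions had 41.6 to 62.2 CPM. It had 31.5 CPM of Ifit1 (25.8 to 38.2), 60.0 of Ifit3 (52.0 to 69.0), 126 of Irf7 (114 to 139) and 433 of Ifi27 (410.5 to 456), where the others had 4.05 to 14.8, 17.5 to 36.4, 56.5 to 121 and 166 to 392 CPM. The interval of Irf7 overlapped that of the collagen-rich region next to it in rank, led by S100g and Col1a1 (109 to 134). The region held 10 of the 21 spots of the section with at least 10 UMIs of Isg15, Ifit1 and Ifit3, and without these it still had 93.7 CPM of Isg15, 19.5 of Ifit1 and 43.8 of Ifit3, each above the other 8 regions.

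A region of 181 spots led by Cpe and Maoa had the reverse order for some genes. It had the lowest Isg15 (41.6 CPM, 35.9 to 47.8), Ifit1 (4.05, 2.44 to 6.32), Ifit3 (17.5, 13.9 to 21.7), Irf7 (56.5, 49.9 to 63.7) and Ifi27 (166, 154 to 178) of the 9 regions, and the highest Usp18 (86.9, 78.7 to 95.8). The other 8 regions had 35.8 to 59.3 CPM of Usp18. For Isg15, Ifit1 and Ifit3 its interval overlapped that of the next lowest region, and for Irf7 and Ifi27 it lay below those of the other 8 regions. Its Usp18 interval lay above those of the other 8, the next highest being 52.0 to 67.4 CPM in the region led by Ankrd1 and Plet1. Its spots were the deepest of the section, with a median of 25854 UMIs, against 13831 in the Afp and H19 region.

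**Figure D5:**
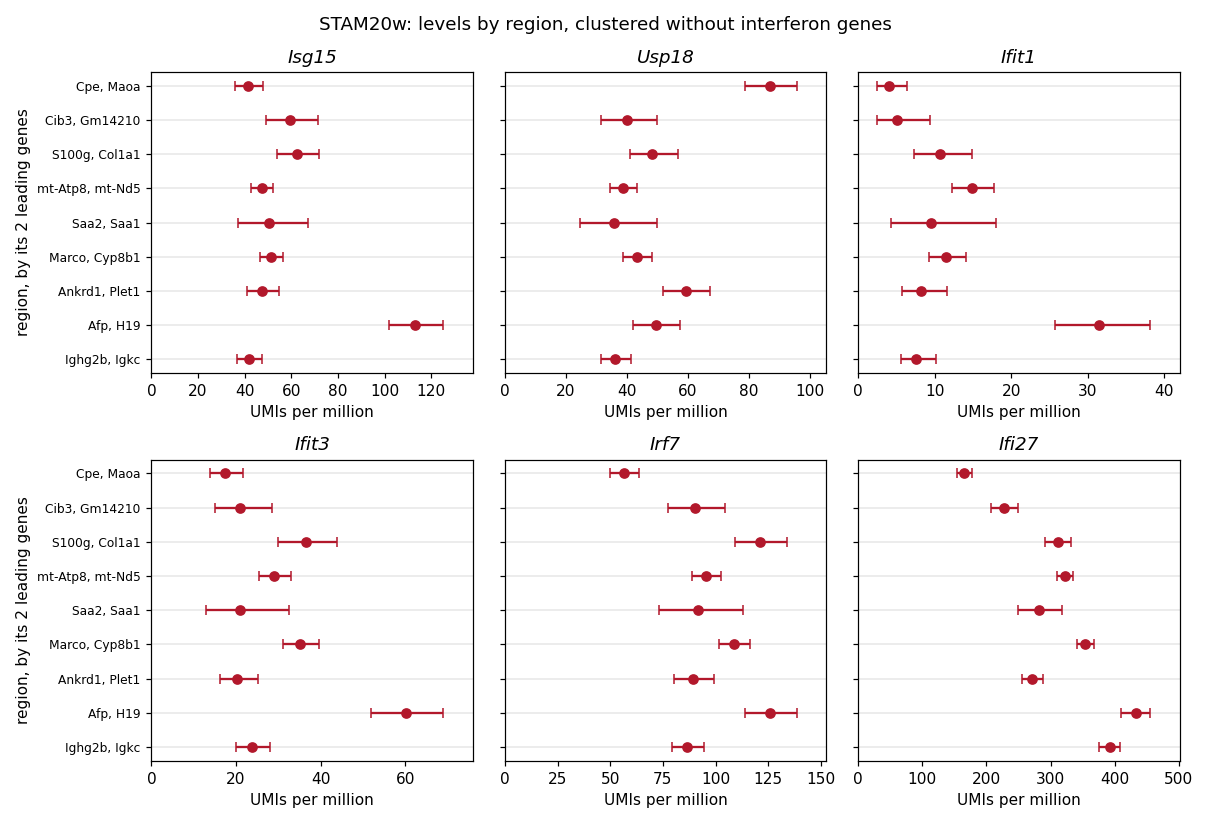
CPM of 6 genes in 9 regions of STAM20w, named by 2 leading genes, with exact 95% Poisson intervals as bars and axes starting at 0. The region led by Afp and H19 has the highest Isg15, Ifit1, Ifit3, Irf7 and Ifi27, and the region led by Cpe and Maoa has the highest Usp18 and the lowest of the other 5 genes.

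In the DEN+CCl4 sections, regions that shared the leading genes Meg3, Gstm2, Gstm3 and Cyp2a5 had more Isg15 and Ifi44l than regions led by the periportal genes Etnppl, Sds and Pck1. In DEN30w these had 28.1 and 17.7 CPM of Isg15 and 7.48 and 3.05 CPM of Ifi44l, and in DEN22w 19.8 and 12.7 CPM of Isg15 and 9.62 and 3.26 CPM of Ifi44l. Intervals of these pairs did not overlap in either section, and the Ifnb1-rich spot lay in the DEN30w region led by Etnppl, Sds and Pck1 with Saa1 and Saa2. Without spots of at least 10 UMIs of Isg15, Ifit1 and Ifit3, this DEN30w pair had 20.1 and 14.2 CPM of Isg15. Another DEN30w region, led by Dlec1 and Ccdc152, had like levels. It had 26.3 CPM of Isg15 (18.1 to 37.0) and 7.98 CPM of Ifi44l (3.83 to 14.7). Levels of Ifi27 varied less, between 242 and 293 CPM over the 6 regions of DEN30w and between 218 and 251 CPM over the 5 regions of DEN22w.

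Across spots, the measured correlations between the 9 genes were low. Pearson correlations of log-normalized levels of Ifit3 with Isg15 were 0.18 in STAM20w, 0.24 in STAM16w, 0.29 in DEN30w and 0.10 in DEN22w, and those of Ifit1 with Ifit3 were 0.20, 0.23, 0.28 and 0.05 in the same order. These are over all spots of a section, which share their library and whose depth differs, so they are given with no p. Few UMIs per spot also lower such values: Ifit1 was detected in 1.57% of DEN22w spots and 14.9% of STAM16w spots. Low correlations therefore do not show that the genes vary apart. The 5 genes outside the list whose levels followed the summed level of the 9 best were Oasl1, Iigp1, Bst2, H2-D1 and Ly6e, with mean correlations over the 4 sections of 0.15, 0.14, 0.14, 0.13 and 0.12 among 8568 genes detected in at least 5% of the spots of every section. In DEN22w the highest of these 5 was 0.10, for Iigp1.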

How the data were processed

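The authors deposited raw UMI counts for each gene in each spot over tissue, not normalized, per the file headers and values. The submitters' processing notes name Space Ranger 1.3.1, STAR and mm10; their settings are not used here. Visium libraries came from fresh-frozen liver, per the labels' protocols. The 9 genes, all gene lists and the comparisons were chosen with earlier results of these data known. Of the list genes, 38 of 40 spot-defining, 24 of 27 paralog, 26 of 27 interferon gamma and 23 of 24 ligand, receptor and signalling genes were found by symbol.

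Spots with at least 500 UMIs and 250 genes were kept. Spot barcodes name slide positions, so 1133 recur in all 4 sections. Log-normalized levels (per 10000 UMIs) gave the marker scores; the top 10% of spots per score were matched to spots below the median of the score with a UMI total within 0.1 on log10. Counts summed per section and class were tested with edgeR 4.0.16 (R 4.3.3, TMM, filterByExpr, quasi-likelihood test, section as a block) and Benjamini-Hochberg adjustment over all genes at 0.05; models were compared on section sums. The replicates are sections, and p-values measure the spread between these sections only. The edgeR test was also run on simulated counts. Apart from depth and the changes put in, these had no differences between sections. They cannot show how the test behaves on the real sections. DESeq2 1.42.0 (without independent filtering, a setting chosen after a first run with it left adjusted p-values of the 9 genes missing), no filter, no block, other spot classes and leaving out each section were alternatives. Regions came from scanpy 1.11.5 (2000 variable genes, 20 components, 15 neighbours, Leiden resolution 0.6). All 9 genes are named; of other interferon genes, up to 5 per direction and comparison past the threshold with the largest differences and one sign in all sections. Gene positions and promoters came from RefSeq tables of GRCm38.p6, the assembly of mm10.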

Additional observations from a re-analysis of the deposited data

Results flagged for a closer look

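The later section of the STAM model was lower and the later section of the DEN+CCl4 model higher for 6 of the 9 genes, with counting intervals on opposite sides of 1. STAM20w over STAM16w and DEN30w over DEN22w ratios were 0.928 and 1.40 for Isg15, 0.761 and 1.38 for Oas1a and 0.746 and 1.32 for Irf7. They were 0.594 and 3.13 for Ifit1, 0.692 and 2.01 for Ifit3 and 0.606 and 1.15 for Ifi27. Without mitochondrial and ribosomal protein genes the STAM20w over STAM16w ratio of Isg15 was 0.976, and its interval of 0.909 to 1.05 held 1. The difference between the models was not tested, since each ratio rests on 1 section per side and the weeks compared are not the same. Without the 19 spots around the Ifnb1-rich spot, the DEN+CCl4 ratios of Ifit1, Ifit3 and Isg15 were 2.23, 1.53 and 1.16, still above 1.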

How the results depend on the processing

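Alternatives moved the number of called genes, and none of the 9 genes that passed changed sign. Over all values of the 9 genes, signs changed in 3 of 88 in interferon-rich and 6 of 87 in macrophage-rich spots. They changed in 10 of 104 in T and NK cell-rich spots, 10 of 79 in stroma-rich spots and 7 of 81 between zones. Between the models 0 of 42 changed, and for zone by model 0 of 14. With DESeq2 the counts of called genes were 90 in interferon-rich, 165 in macrophage-rich, 18 in T and NK cell-rich and 384 in stroma-rich spots, 677 between zones, 1513 between models and 18 for zone by model. With no filter on low counts they were 427 in interferon-rich spots, 1776 between zones, 1872 between models and 580 for zone by model. With no section block they were 0 in interferon-rich and stroma-rich spots and between zones, 3 in macrophage-rich and 5 in T and NK cell-rich spots, and Isg15, Ifit1, Ifit3 and Irf7 did not pass. With unmatched spots they were 469 in interferon-rich, 1215 in macrophage-rich and 2026 in stroma-rich spots, and with the top 5% of spots 56 in T and NK cell-rich spots. Leaving out each section gave 99 to 335 genes in interferon-rich spots, 523 to 1223 between zones, 397 to 900 in macrophage-rich, 28 to 111 in T and NK cell-rich and 545 to 1158 in stroma-rich spots. Between the models it gave 2 to 922, the lone section of a model being assumed to vary like the other model. The low ends came without DEN22w (99, then 117 without DEN30w) in interferon-rich spots, without DEN22w (523, then 620 without DEN30w) between zones and without DEN30w in the others; without STAM20w there were 51 in T and NK cell-rich and 649 in stroma-rich spots, and between models 922 without STAM16w and 5 without DEN22w. The main counts were 270, 1162, 726, 89, 1176 and 63, and 48 for zone by model. Without mitochondrial and ribosomal protein genes, STAM20w over STAM16w was 0.976 for Isg15, 0.785 for Irf7 and 0.637 for Ifi27; without the spots near the Ifnb1-rich spot, an alternative chosen after seeing the data as was the marker list without Ccl5, DEN30w over DEN22w was 1.16 for Isg15, 2.23 for Ifit1 and 1.53 for Ifit3. Leaving out the 1% of spots with most UMIs of a gene moved 28 of 36 levels beyond their counting interval. The causes were not tested. Spot classes and zones were paired within sections by the section block. Sections could not be paired across groups, because each group has 1 section and the labels give no number that pairs sections. Counts of Oas1a, Ifit1, Ifi44l and Ifi202b below 100 UMIs in a section or class limit those ratios.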
